A study of Homo sapiens with 3 samples.

Results

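The Krüppel-like factors described here are 10 of the 58302 genes in the deposited expression table: KLF3, KLF4, KLF5, KLF6, KLF7, KLF9, KLF10, KLF11, KLF13 and KLF16. They were taken by gene symbol, with their read counts and FPKM values (read counts scaled to gene length and library total) in 3 RNA-seq libraries. The list was drawn up with results of these same libraries known, and KLF13 was selected on its difference in counts and FPKM between the siRNA libraries. How the other 9 were picked is not stated. Comparisons of these genes are therefore descriptions: no p-value of a single gene is given, and the number passing a test is printed beside the share of all tested genes, with nothing read from it. All 10 also passed the filter on low counts, which left 17263 genes. KLF12, which is not among the 10, had counts of 756 with si1, 651 with si2 and 598 in NC, above those of KLF7 and KLF16, so the 10 are not simply the family members with the highest counts.

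All libraries were made from HCT116 cells, a long-used line from a human colorectal carcinoma. Library si1 and library si2 are labelled with different small interfering RNA (siRNA) sequences, and the series speaks of low expression of DUOX2, which makes hydrogen peroxide at the cell surface. Library NC is labelled with a control siRNA sequence. Each siRNA has 1 library, and the labels give no culture, dose or time, so the values per library have no replicate error. Both comparisons with NC share that single NC library.

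Krüppel-like factors are transcription factors that bind GC boxes and CACCC boxes in promoters and enhancers through zinc fingers at their C-terminal end. Their N-terminal parts differ and set whether a factor recruits acetyltransferases, the corepressor CtBP or the corepressor SIN3A. In the intestinal epithelium KLF5 is known from dividing crypt cells, where it promotes growth, and KLF4 from differentiated cells nearer the surface, where it restrains it.

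The total count was 19130768 with si1, 18832672 with si2 and 17589502 in NC, and a count of 0 allows a level of up to 3 counts, or 0.157 CPM (counts scaled to a common library total) with si1, 0.159 with si2 and 0.171 in NC. The targeted gene, DUOX2, had 2 counts with si1, 0 with si2 and 2 in NC. All of these are at or under the 3 counts above, so the target gives no fold change and no check of the labels. The epithelial markers EPCAM, KRT8 and KRT18 were abundant in every library. EPCAM had 12181 counts with si1, 11926 with si2 and 7646 in NC. KRT18 ran the other way, at 19590 with si1, 27271 with si2 and 33521 in NC. KRT8 had 21957 with si1, 39987 with si2 and 31766 in NC. KRT20, another of the 7 epithelial and colorectal markers, had only 0 counts with si1, 4 with si2 and 2 in NC. The extraction text in the labels speaks of retinas, and the photoreceptor genes CRX, GNAT1 and OPN1SW had 0 counts in every library. Of the 8 retina markers 5 were at 0 in all libraries, and their summed level was 4.44 CPM with si1, 5.74 with si2 and 8.30 in NC, most of it from RLBP1. The 7 epithelial and colorectal markers summed to 2965 CPM with si1, 4415 with si2 and 4412 in NC. The 6 fibroblast markers summed to 2.30, 3.24 and 3.75 CPM, the 6 leukocyte markers to 2.67, 2.81 and 5.29 CPM and the 4 endothelial markers to 0.261, 0.478 and 0.512 CPM in the same order of libraries, with DCN, PTPRC, PECAM1 and CDH5 at 0 in all of them.

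The guide strands of the siRNAs are shown because siRNAs can also act on other transcripts through their seed, the bases 2 to 8 from the 5′ end, which are given in capitals. They are the second strand of each duplex in the labels, without the TT overhang.
si1 guide: aACCACUAuguuguccucc
si2 guide: aUGAAGGAucgcaucaugg
NC guide: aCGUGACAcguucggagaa
A site complementary to the seed of si1 was present in the longest GENCODE 29 transcript of 11.9% of the 17209 tested genes with a transcript, one for si2 in 29.4%, and one for NC in 6.35%. Among the Krüppel-like factors 4 sites were found, and the seed match is in capitals in the stretches of transcript below.
KLF7, seed of si1: catccagTAGTGGTctctatc
KLF6, seed of si2: aaggtccTCCTTCAcaaagac
KLF13, seed of NC: cccagggTGTCACGgaaggag
KLF11, seed of NC: gatgagcTGTCACGccaccgc
On GRCh38 the match in KLF7 lies on chromosome 2 at 207079619 to 207079625, in the 3′ UTR part of exon 4 of 4. That in KLF6 lies on chromosome 10 at 3778150 to 3778156, also in the 3′ UTR and in exon 4 of 4. That in KLF13 lies on chromosome 15 at 31374737 to 31374743, in the 3′ UTR part of exon 2 of 2. That in KLF11 lies on chromosome 2 at 10052290 to 10052296, within coding sequence of exon 4 of 4. The longest transcript of KLF13, of 6825 bases, held no match to the guide seed of si1 or si2. The merged exons of KLF13 hold 9409 bases. Those outside that transcript were not searched, nor were the seeds of the other siRNA strands.

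Within 0.5 of NC on the log2 scale lay 6 of the 10 with si1, against 47.4% of all tested genes, and 7 of the 10 with si2, against 57%. With si1, 5 were higher and 5 lower than NC, with a median log2 fold change of -0.01, against 0.02 over all tested genes. With si2, 4 were higher and 6 lower, with a median of -0.06, against -0.01 over all tested genes. KLF13 was the lowest of the 10 with si1, KLF10 was the highest with si2, and KLF16 was at least 2-fold lower in both. Fold changes are differences of log2 CPM with TMM scaling and a prior count of 2, and intervals in brackets are exact 95% intervals that cover counting error only.

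At least 2-fold differences from NC were seen for 2 of the 10 with si1, KLF13 and KLF16, where 20.4% of all tested genes differed that much, 8.06% higher and 12.4% lower. With si2 there was 1 of the 10, KLF16, where 13.4% of all tested genes differed that much, 5.54% higher and 7.84% lower. KLF16 alone was 2-fold away with both siRNAs, against 9.05% of all tested genes in the same direction with both, 4% higher and 5.05% lower. With the trend on GC content removed 0 of the 10 were, against 4.73% of all tested genes. By any amount 4 of the 10, KLF3, KLF5, KLF6 and KLF10, were higher with both, against 41.9% of all tested genes, and 5, KLF4, KLF9, KLF11, KLF13 and KLF16, were lower with both, against 41.6%. With the GC trend removed KLF3, KLF7, KLF10 and KLF13 lay on opposite sides of NC with si1 and si2. The share of all tested genes on opposite sides was not computed for that setting, so nothing is read from this. In the edgeR quasi-likelihood test of both siRNA libraries against NC, 0 of the 10 passed an adjusted p of 0.05, where 0.0579% of all tested genes passed, 0.0174% higher and 0.0405% lower. At an unadjusted p under 0.05 the count was 2 of the 10 in edgeR and 2 in DESeq2, against 26% of all tested genes in edgeR and 15% in DESeq2. By DESeq2 with adjustment, 0 of the 10 passed, where 567 of the 17263 tested genes passed, 263 higher and 304 lower.

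**Figure D1:**
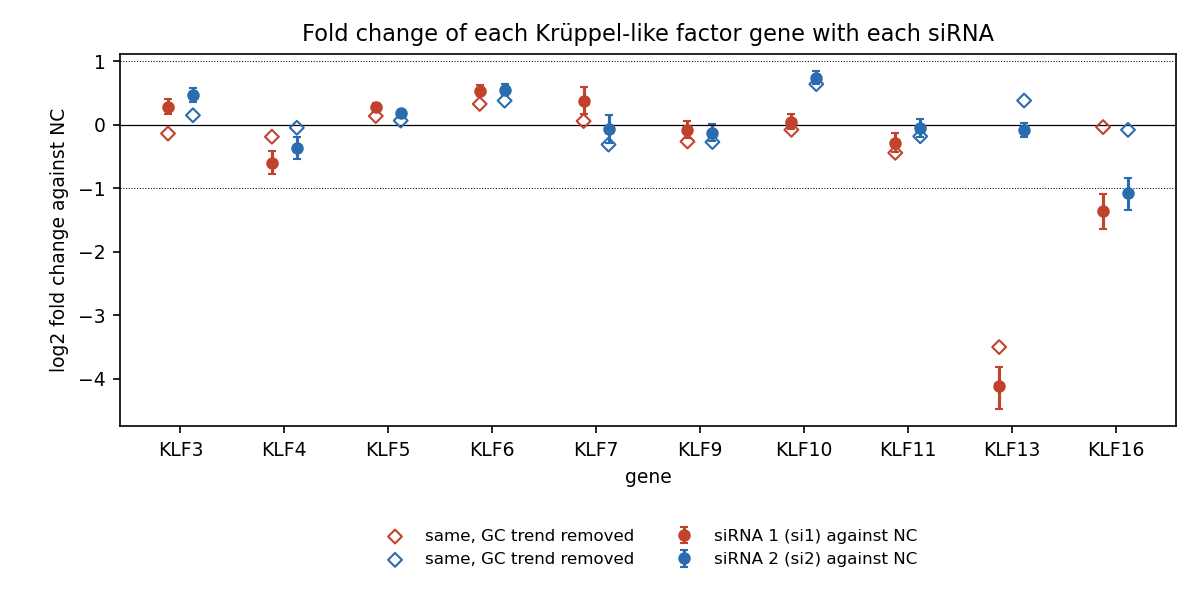
log2 fold change against NC (y axis) of each Krüppel-like factor gene (x axis) with si1 and with si2. Filled points are values as measured with exact 95% counting intervals, open diamonds are values after the trend on GC content was removed, and dotted lines mark 2-fold. KLF13 with si1 stands at -4.10, while KLF16 moves from beyond the 2-fold line to near 0 once the GC trend is removed.

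Levels between genes were compared per length, as CPM per kilobase of merged exons. The deposited FPKM was not used for this. The gene length that it implies was equal within 1 base to the sum of all distinct exons for 92.1% of 12271 genes. Bases that lie in more than 1 distinct exon therefore enter that length more than once. For KLF4 this length is 8933 bases, against 3659 bases of merged exons, and for KLF6 it is 13529 against 6139 bases. For KLF9, which has 1 set of exons, both are 5175 bases. FPKM therefore places KLF4, KLF6 and KLF5 low relative to KLF9. Ratios between libraries for the same gene do not depend on this length.

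KLF5 was by far the most abundant of the 10, at 73.8 with si1, 72.9 with si2 and 67.0 in NC on this scale, and made up 48.8%, 41.2% and 41.9% of the summed level of the 10 in those libraries. KLF6 and KLF10 followed in every library. In NC, KLF10 and KLF6 overlapped in their counting intervals, as did each pair of neighbours in the order from KLF3 through KLF11, KLF9, KLF4 and KLF13 to KLF16, which ran between 10.7 and 7.66. KLF7 came last with si2 at 1.88 and in NC at 2.04. With si1 KLF13 came last, at 0.456, under KLF7 at 2.42. The order by deposited FPKM differed in each library, with KLF6 behind KLF3 in all of them. The summed level of the 10 was 151.3 with si1, 177 with si2 and 159.9 in NC. Without KLF13 it was 150.9 with si1, 169 with si2 and 151.1 in NC.

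**Figure D2:**
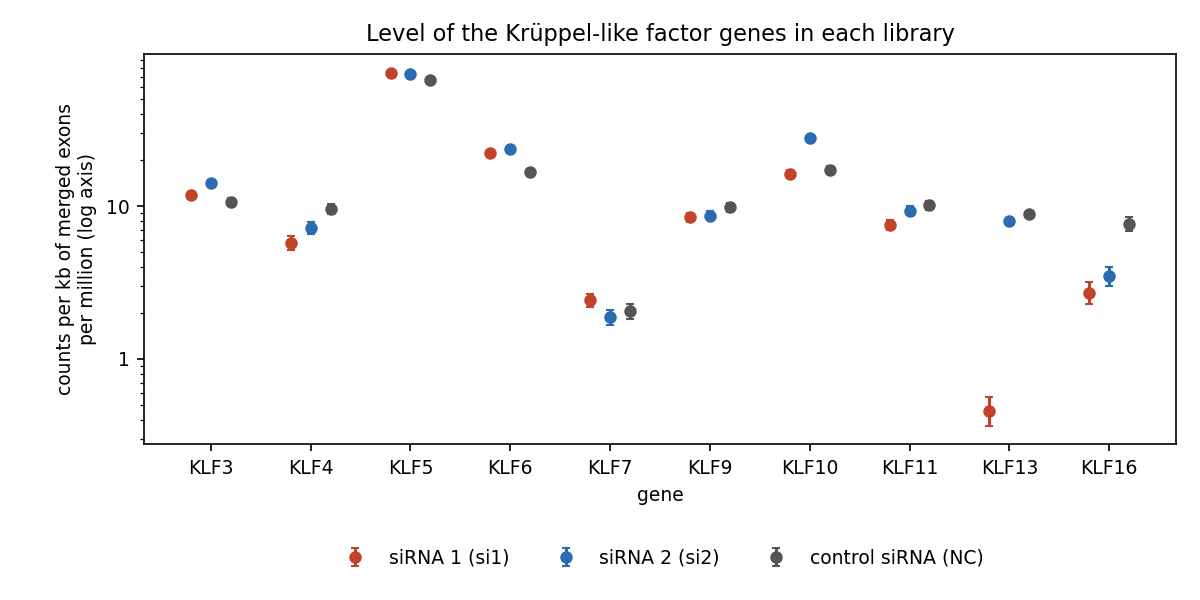
Level of each Krüppel-like factor gene (x axis) in the si1, si2 and NC libraries, as CPM per kilobase of merged exons on a log axis, with exact 95% Poisson intervals for counting error. KLF5 lies near 70 in every library, and KLF13 lies at 0.456 with si1 and at 7.97 with si2, against 8.82 in NC.

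The activator group holds KLF4, KLF5, KLF6 and KLF7, whose N-terminal parts can recruit acetyltransferases. KLF5 (ENSG00000102554, chromosome 13, 73054976 to 73077542) had 5499 counts with si1, 5346 with si2 and 4589 in NC. Both siRNA libraries lay slightly above NC, with log2 fold changes of 0.28 (0.22 to 0.34) with si1 and 0.18 (0.12 to 0.24) with si2. KLF4 (ENSG00000136826, chromosome 9, 107484852 to 107490482), also known as one of the reprogramming factors, had 402 counts with si1, 493 with si2 and 616 in NC. It was lower with both, at -0.59 (-0.78 to -0.41) and -0.36 (-0.53 to -0.19). The ratio of KLF5 to KLF4 was thus higher with both siRNAs than in NC in these libraries.

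After removal of the trend on GC content KLF4 stood at -0.19 with si1 and -0.05 with si2, and KLF5 at 0.14 and 0.07. The 1052 tested genes within 1 percentage point of the GC content of KLF4 had medians of -0.37 with si1 and -0.30 with si2. KLF6 (ENSG00000067082, chromosome 10, 3775996 to 3785281), which is known as a growth suppressor in several tumours, had 2597 counts with si1, 2721 with si2 and 1813 in NC. Its fold changes were alike, 0.54 (0.45 to 0.62) with si1 and 0.55 (0.46 to 0.63) with si2. Its values stayed above NC after the trend was removed, at 0.33 and 0.38. KLF7 (ENSG00000118263, chromosome 2, 207074137 to 207167267), known from neurons, had 428 counts with si1, 327 with si2 and 333 in NC. It was the 1 member on opposite sides of NC, at 0.38 (0.17 to 0.59) with si1 and -0.06 (-0.29 to 0.16) with si2, where 16.5% of all tested genes were on opposite sides. With the GC trend removed KLF7 stood at 0.06 with si1 and -0.31 with si2. Whether the seed sites shown above bear on the level of KLF6, KLF7, KLF11 or KLF13 was not tested.

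KLF3 (ENSG00000109787, chromosome 4, 38664196 to 38701042) is a repressor that acts through CtBP. It had 1422 counts with si1, 1684 with si2 and 1182 in NC, so both siRNA libraries lay above NC. The log2 fold changes were 0.29 (0.17 to 0.40) with si1 and 0.47 (0.36 to 0.58) with si2. After the GC trend was removed the value with si1 lay on the other side of NC, at -0.14, and that with si2 at 0.15. KLF3-AS1, an antisense gene that shares 4.22% of the exon bases of KLF3, had 4 counts with si1, 1 with si2 and 5 in NC. Whether strand was used in counting is not stated, so reads of the antisense gene and of KLF3 cannot be told apart there. The KLF12 gene, which belongs to the same CtBP-binding group, had log2 fold changes of 0.36 with si1 and 0.08 with si2, and -0.17 and -0.33 after removal of the trend. KLF8, the other member of that group, had 0 counts in every library.

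The SIN3A-binding group holds KLF9, KLF10, KLF11, KLF13 and KLF16. KLF10 and KLF11 are known as early genes induced by TGF-beta. KLF10 (ENSG00000155090, chromosome 8, 102648779 to 102655902) had 1245 counts with si1, 2099 with si2 and 1220 in NC. The si2 library lay above NC while si1 was close to it. The log2 fold changes were 0.05 (-0.07 to 0.16) with si1 and 0.74 (0.64 to 0.85) with si2. The value with si2 was 0.64 with the GC trend removed. Of all tested genes 90.2% lay below KLF10 in si2 against NC. The direction with si1 depended on the scaling, since it was -0.09 under total count scaling and -0.08 with the GC trend removed. KLF11 (ENSG00000172059, chromosome 2, 10042849 to 10054836) had 662 counts with si1, 808 with si2 and 817 in NC. It did not go with KLF10, at -0.28 (-0.43 to -0.14) with si1 and -0.05 (-0.20 to 0.09) with si2, or -0.44 and -0.18 with the GC trend removed. AC104794.4, an antisense gene that shares 9.07% of the exon bases of KLF11, had 3 counts with si1, 2 with si2 and 0 in NC. As for KLF3, reads of the 2 genes cannot be told apart there. KLF9 (ENSG00000119138, chromosome 9, 70384597 to 70414624), a target of the glucocorticoid and thyroid hormone receptors, had 839 counts with si1, 846 with si2 and 897 in NC. Its log2 fold changes were -0.08 (-0.22 to 0.06) with si1 and -0.12 (-0.26 to 0.01) with si2, and -0.26 and -0.27 with the GC trend removed.

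KLF13 (ENSG00000169926, chromosome 15, 31326855 to 31435665), known as a regulator of the chemokine gene CCL5 in T cells, had 82 counts with si1, 1413 with si2 and 1460 in NC. These were 4.29 CPM with si1, with a Poisson interval of 3.41 to 5.32, then 75.0 (71.2 to 79.0) with si2 and 83.0 (78.8 to 87.4) in NC. The si1 library alone was low, and si2 lay close to NC. The log2 fold change with si1 was -4.10 (-4.47 to -3.81), which is 17.2-fold lower than NC, and with si2 it was -0.09 (-0.19 to 0.02). Against si2, si1 was 16.2-fold lower, a log2 fold change of -4.02 (-4.39 to -3.73). Each of these rests on 1 library a side. With the GC trend removed the values were -3.50 with si1 and 0.38 with si2 against NC, so that the side of NC on which si2 lies depends on that step, while the low value with si1 does not.

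Of the 10, KLF13 was the 1 at least 2-fold apart between si1 and si2, where 6.56% of all tested genes were that far apart 3.26% higher and 3.3% lower with si1. At least as low as KLF13 in si1 against si2 were 16 of 17263 genes, or 0.0927%, KLF13 included, and 4 of them, or 0.0232%, also had si2 within 0.25 of NC on the log2 scale. Of the 6860 tested genes whose mean count reached 500, KLF13 was the 1 gene that low, or 0.0146%. KLF13 was selected on this difference, and its own value sets the threshold. These shares are therefore a description and no evidence that its difference is rare. The next largest difference among the 10 was that of KLF10, at -0.70 (-0.80 to -0.59), and then KLF7, at 0.44 (0.23 to 0.66). Of the 10, 8 lay within 0.5 of 0 on the log2 scale between si1 and si2, as did 77.6% of all tested genes.

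**Figure D3:**
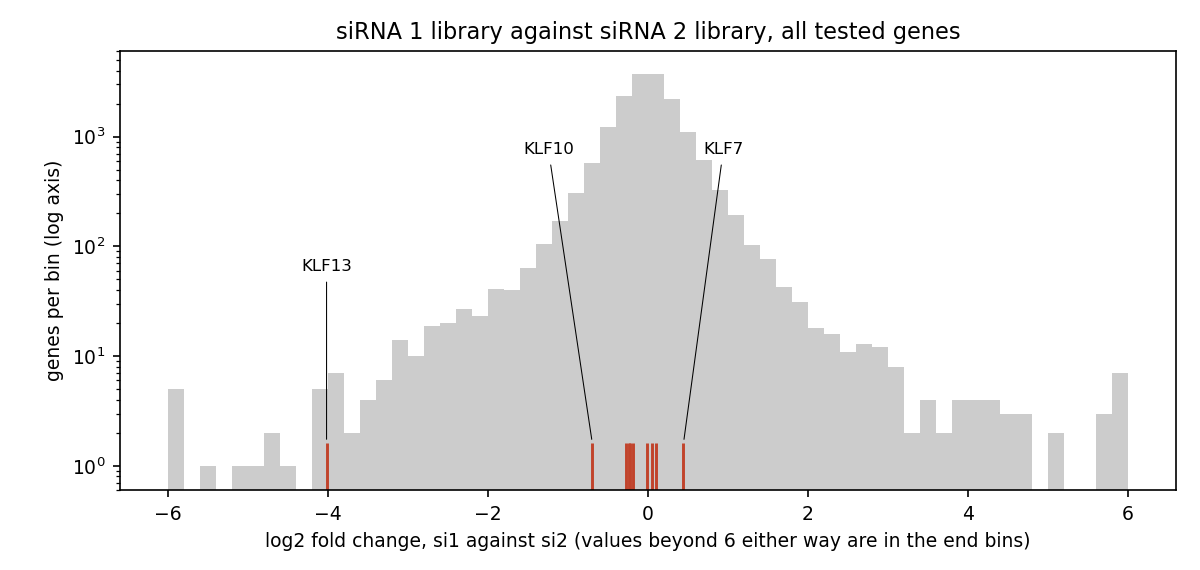
Distribution over all tested genes of the log2 fold change of si1 against si2 (x axis), as genes per bin on a log axis, with red ticks for the 10 Krüppel-like factors. KLF13 lies at -4.02, far in the lower tail, while the other members lie between -0.70 for KLF10 and 0.44 for KLF7.

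The neighbours of KLF13 on chromosome 15, within 500 kb and with at least 50 counts in a library, were looked at after the values of KLF13 were seen. FAN1, a nuclease of DNA crosslink repair, had 535 counts with si1, 618 with si2 and 541 in NC. MTMR10 had 370 with si1, 379 with si2 and 332 in NC, and AC087481.3 had 105, 98 and 123 in the same order. AC026951.1 had 68 with si1, 45 with si2 and 17 in NC. The low value of KLF13 with si1 was thus not shared by these genes. UBE2CP4, a pseudogene inside KLF13, had 0 counts in every library and shares no exon base with it.

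The fewest mismatches between the target sequence of the si1 guide and the longest transcript of KLF13 were 6 of 19 bases, and as few or fewer were found in 31.2% of the scanned genes. For si2 and KLF13 there were 7, as few as in 69.7% of genes. The closest match among the 10 genes was that of the si2 guide to KLF16, with 5 mismatches of 19 bases, as few as in 3.63% of genes. Whether any of these bears on the level of the gene was not tested.

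Among the genes whose pattern over the 3 libraries lay nearest to KLF13, out of 6514 protein-coding genes whose mean count reached 500, were MED29 and CLDN11, at distances of 0.60 and 0.88 on the centred log2 scale. MED29, a subunit of the Mediator complex, had 110 counts with si1, 1063 with si2 and 1322 in NC. CLDN11, a tight junction protein, had 93 with si1, 844 with si2 and 728 in NC. With 3 libraries such likeness says only that these genes too were low in the si1 library.

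KLF16 (ENSG00000129911, chromosome 19, 1852399 to 1863568), described as a repressor that competes with SP1 for GC boxes, had 153 counts with si1, 193 with si2 and 398 in NC. Both siRNA libraries were below NC. The log2 fold changes were -1.35 (-1.64 to -1.09) with si1 and -1.07 (-1.34 to -0.83) with si2, or 2.55-fold and 2.11-fold lower. KLF16 has the highest GC content of the 10 transcripts, 67.8%, and the 169 tested genes within 1 percentage point of it had medians of -1.26 with si1 and -0.996 with si2. With the GC trend removed KLF16 stood at -0.04 with si1 and -0.08 with si2, so its difference from NC was about that of other genes of its GC content; the part of GC content in it was not tested. AC012615.3, an antisense gene, covers 16.3% of the exon bases of KLF16, which makes KLF16 uncertain by that overlap, but it had 0 counts in every library.

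The GC content of the longest transcript ran from 41.5% in KLF3 to 67.8% in KLF16, with a median of 46.9%, against 48.5% over all tested genes. Across all tested genes with a GC value, which are not independent replicates, Spearman's rho between GC content and log2 fold change was -0.68 with si1 and -0.64 with si2. Across the 10 genes it was -0.84 with si1 and -0.50 with si2, on points that share their libraries. KLF13 with si1 lay well below genes of like GC content, whose median was -0.61 and of which 10% lay under -1.26. KLF10 with si2 lay just under 0.79, above which 10% of genes of its GC content lay.

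**Figure D4:**
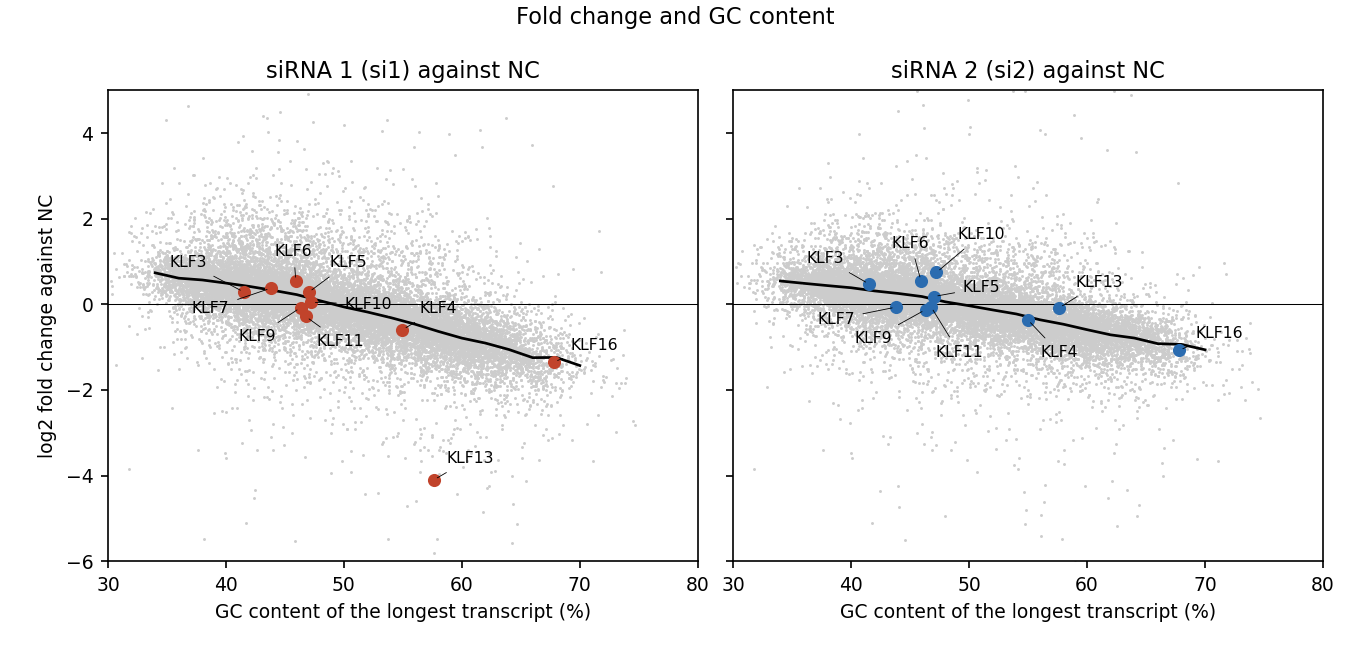
log2 fold change against NC (y axis) and GC content of the longest transcript (x axis) for all tested genes (grey) and the 10 Krüppel-like factors (coloured), with si1 on the left and si2 on the right. The black line is the median in windows of GC content, and a few genes beyond the axes are not drawn. KLF16 lies close to the line in both panels, and KLF13 lies far under it with si1 alone.

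The promoters of KLF13 and KLF16 are shown because these genes had the largest differences among the 10. They run from 250 bases before to 50 after the start, from RefSeq on GRCh38.p14, with GC boxes (GGGCGG, or CCGCCC on the other strand) in capitals.
KLF13, chr15:31326585-31326884, plus strand: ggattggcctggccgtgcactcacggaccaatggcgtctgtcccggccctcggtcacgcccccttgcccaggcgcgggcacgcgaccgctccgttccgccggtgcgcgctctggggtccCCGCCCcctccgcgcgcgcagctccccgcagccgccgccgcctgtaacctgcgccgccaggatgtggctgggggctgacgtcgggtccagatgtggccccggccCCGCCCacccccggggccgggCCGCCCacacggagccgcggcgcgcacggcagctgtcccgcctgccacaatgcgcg
KLF16, chr19:1863530-1863829, minus strand: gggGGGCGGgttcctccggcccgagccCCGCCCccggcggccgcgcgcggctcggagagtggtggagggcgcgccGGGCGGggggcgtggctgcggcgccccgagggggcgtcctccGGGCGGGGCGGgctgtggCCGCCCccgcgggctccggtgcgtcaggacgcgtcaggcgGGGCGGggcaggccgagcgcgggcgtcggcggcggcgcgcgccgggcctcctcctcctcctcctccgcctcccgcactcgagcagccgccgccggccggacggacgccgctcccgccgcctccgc
That of KLF13 held 3 GC boxes and that of KLF16 held 7, counting overlapping ones, and 45.0% of 35116 promoters of this length held at least 1. A CACCC box (CACCC, or GGGTG on the other strand) was found once for KLF13, where it overlaps a GC box, and not in this window for KLF16, against 59.9% of promoters with at least 1. The GC content of these promoters was 78.3% for KLF13 and 86% for KLF16. The promoter of KLF9 held neither motif and had a GC content of 32.7%. Those nearest to the deposited starts of KLF5 and KLF7 held 0 GC boxes, and those of KLF4, KLF6 and KLF11 held 4, 2 and 2. The other start of KLF5, 4029 bases away, held 2. Of the 4 starts of KLF7, that 411 bases away held 4 and the others 0. Which start was used in these cells was not tested. A match of these letters is not evidence of binding. Of the 10 genes 8 had a promoter in the table, and KLF3 and KLF10 did not.

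The other Krüppel-like factors were mostly at low counts. Of 8 such genes, 4 passed the filter, with 1 above NC and 3 below it with both siRNAs, 0 at least 2-fold away with both and 0 passing the test. KLF2, known from endothelial cells and T cells, had 52 counts with si1, 51 with si2 and 61 in NC. KLF8, KLF17 and KLF18 had 0 counts in every library, and the Krüppel-like factor pseudogenes had none, except KLF3P1 with 0 counts with si1, 1 with si2 and 1 in NC.

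The SP factors share the zinc fingers and the GC box with the Krüppel-like factors. Of 9 SP genes 7 passed the filter, 0 passed the test and 1 was at least 2-fold lower with both siRNAs. That was SP5, with 896 counts with si1, 1269 with si2 and 2906 in NC, and log2 fold changes of -1.68 and -1.23, which were -0.47 and -0.32 with the GC trend removed. The median of the list was -0.71 with si1 and -0.36 with si2, and -0.20 and -0.03 with the trend removed. SP6, chosen after its values were seen, had 26 counts with si1, 260 with si2 and 358 in NC. Like KLF13 it was low with si1, with a log2 fold change of -3.67 with si1 against NC and -0.50 with si2, and -3.17 for si1 against si2. With the GC trend removed SP6 stood at -2.85 with si1 and, on the other side of NC, at 0.12 with si2.

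Of 10 corepressor genes used by Krüppel-like factors all were tested and 0 passed, with 4 above and 4 below NC with both siRNAs. SIN3A, the partner of the group of KLF9, chosen after its values were seen, had 2836 counts with si1, 2660 with si2 and 1934 in NC. The list had a median of -0.14 with si1 and 0.01 with si2, and of 0.11 and 0.16 with the GC trend removed, so that the side of NC with si1 turned.

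Of 4 acetyltransferase genes 0 passed and 0 were 2-fold away with both, with medians of -0.18 with si1 and -0.11 with si2, which turned to 0.07 and 0.04 with the GC trend removed. EP300 had 3443 counts with si1, 3475 with si2 and 4059 in NC, and CREBBP had 1909 with si1, 2268 with si2 and 2134 in NC. Of 8 genes of protein turnover, 0 passed and 0 were 2-fold away with both, 5 lay above and 2 below NC with both, and the medians were 0.21 with si1 and 0.33 with si2, or 0.11 and 0.11 with the GC trend removed. SMURF2, a ubiquitin ligase, had 2495 counts with si1, 2877 with si2 and 2270 in NC. WWP1, a ubiquitin ligase of KLF5, had 1935 with si1, 1658 with si2 and 1077 in NC, at 0.86 and 0.58, or 0.34 and 0.17 with the GC trend removed.

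Among 9 genes of TGF-beta signalling, the pathway upstream of KLF10 and KLF11, 0 passed and 0 were 2-fold away with both, with medians of 0.02 with si1 and 0.03 with si2, which turned to -0.16 and -0.09 with the GC trend removed. SMAD3, which carries the signal to the nucleus, had 1677 counts with si1, 1721 with si2 and 2023 in NC. SKIL, a TGF-beta-induced corepressor chosen after its values were seen, had 1504 with si1, 709 with si2 and 936 in NC, the other order of the siRNAs from that of KLF10. Of 5 tested genes of the glucocorticoid receptor and its response, 0 passed and PER1, a clock gene, was at least 2-fold lower with both, at 273 counts with si1, 351 with si2 and 817 in NC. Its log2 fold changes of -1.56 and -1.25 stood at -0.58 and -0.51 with the GC trend removed.

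Of 13 growth genes described as targets of KLF4 or KLF5, 12 were tested, 0 passed, 0 were 2-fold away with both, and 5 lay above and 5 below NC with both. CCND1, cyclin D1, had 47273 counts with si1, 46684 with si2 and 42840 in NC. ODC1, an enzyme of polyamine synthesis, had 11994 with si1, 12811 with si2 and 9101 in NC, at 0.42 and 0.46. CDKN1A, the cell cycle inhibitor p21 and a target of KLF4, chosen after its values were seen, had 2038 with si1, 2379 with si2 and 3224 in NC. Its log2 fold changes of -0.64 and -0.48 stood at -0.004 and 0.02 with the GC trend removed. Of 8 intestinal differentiation genes 2 were tested and 0 passed. CDX2, an intestinal transcription factor, had 893 counts with si1, 1204 with si2 and 2001 in NC, and VIL1, a brush border protein, had 883 with si1, 970 with si2 and 1189 in NC.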

How the data were processed

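RNA from 3 HCT116 libraries was analysed, si1 and si2 as replicates 1 and 2 of the siRNA group and NC as the control. The p-values measure only the spread between si1 and si2, since NC is a single library and adds none. As si1 and si2 carry different siRNA sequences, that spread may be technical or may come from the sequences. Variation of the control was not measured. The deposited table gives raw read counts and FPKM; the aligner Bowtie (0.12.2) and 2 genome builds, GRCh38 and mm8, appear per the submitters' processing notes, their use unstated. The counter, strand setting and treatment of multiply aligned reads were not given in the sources used here. By its values, the authors' FPKM is the count per gene length and column total. Every row named a gene. Of the genes, 97.5% of the 58039 found in GENCODE 29 had identical coordinates. Counts were tested with edgeR 4.0.16 (R 4.3.3; TMM, filterByExpr with a minimum count of 10, glmQLFit, glmQLFTest, Benjamini-Hochberg, 1 residual degree of freedom), which was tested on simulated data. GC content is that of the longest transcript (known for 99.5% of genes), its trend a lowess with fraction 0.3 (statsmodels 0.14.6). The members and gene lists were chosen with earlier results of these data known. Named beyond the 10 members were, per list, genes 2-fold away with both siRNAs (at most 4), otherwise the 2 with the highest mean count, and the 3 genes nearest to KLF13; others are marked, and some genes that this rule names are not reported here. Intervals (95%) are exact, Poisson or conditional binomial (scipy 1.17.1), and cover counting error only (no molecular identifiers are described, so PCR copies may be counted). Alternatives were DESeq2 1.42.0, limma 3.58.1 on log2(FPKM + 0.1) and log2(FPKM + 1), other scalings, filters, prior counts, fold thresholds and left-out libraries. The order by FPKM was an alternative chosen after seeing the data.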

Additional observations from a re-analysis of the deposited data

How the results depend on the processing

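The 10 genes called over the whole table by edgeR (3 higher, 7 lower) became 9 under total count scaling, 10 with DESeq2 size factors and 8 in protein-coding genes. They became 0 without a filter (3938 genes at an unadjusted p under 0.05), 0 with a minimum of 1 CPM per library (4050), 0 by limma on log2(FPKM + 0.1) (4010) and 0 on log2(FPKM + 1) (4282), and 567 with DESeq2 (263 higher, 304 lower). Under each of these fits 0 of the 10 Krüppel-like factors passed. The number 2-fold from NC with both siRNAs was 1, and became 0 with the GC trend removed, where KLF16 no longer counted; leaving out 1 siRNA library gave 1 to 2, the second being KLF13 with si1 alone. The number apart between si1 and si2 was 1, and 2 at a 1.5-fold threshold, with KLF10 added. The share of all tested genes at 1.5-fold was not computed, so nothing is read from that count. Removing the GC trend moved 21 of 30 values of single genes beyond their counting interval, total count scaling and log2(FPKM + 0.1) moved 8 each, and TMM from protein-coding genes moved 2; with DESeq2 size factors and with a prior count of 0.5 all 30 stayed inside. The side of NC changed for KLF3 with si1, KLF13 with si2 and KLF10 with si1 as given above, and for KLF9 with si1 and KLF11 with si2 under TMM from protein-coding genes, to 0.004 for each. Total count scaling shifted the median of all tested genes by -0.14 with si1 and -0.06 with si2. No paired analysis was possible because NC has 1 library and no replicate number. With 1 library against 1 the edgeR count could not be tested. No difference can be told from variation between cultures at this number of libraries.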
